A study of Homo sapiens with 24 samples.

Results

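Control cells were followed here from day 14 to day 21 of neural induction, the last week of the culture. The comparison takes the 3 arrays of control cells from day 21 minus the 3 from day 14, which are 6 of the 24 arrays of the series, across the 37295 transcript clusters that carry a gene symbol, of 135750 measured. R-2A (HiPS-RIKEN-2A) is a human induced pluripotent stem cell (hiPSC) line, and the control cells carry a lentiviral shRNA that targets no mammalian gene, after selection with puromycin. They were made into neural stem/progenitor cells (NS/PCs) as a monolayer with the STEMdiff SMADi Neural Induction Kit, whose inhibitors block SMAD signalling, and were passaged every 7 days. Both groups therefore share the vector, the selection and the kit, and differ in 7 days of culture. The *ROR2* knockdown (*ROR2* KD) cells of the same line at the same days, with 3 arrays each, serve as a further comparison. Days 0 and 7 of both cell lines are shown only as levels, but their arrays also enter the estimate of the spread behind the p-values. All arrays come from 1 hiPSC line, and the labels do not say whether biological replicates are separate transductions or separate cultures, so the p-values measure the spread between these samples. RNA came from whole cultures, in which more cells of a type and more RNA per cell cannot be told apart.

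The telencephalon, the front of the forebrain, is patterned along its dorsal and ventral sides. Dorsal progenitors, which give rise to the excitatory neurons of the cortex, express the transcription factors *PAX6* and *EMX2*. Ventral progenitors of the ganglionic eminences, where GABAergic interneurons are born, express the *DLX* homeobox genes, and the medial eminence is marked by *NKX2-1* and its targets *LHX6* and *LHX8*. Sonic hedgehog promotes the ventral fate, whereas the zinc finger protein GLI3, mainly as a repressor, keeps the dorsal one.

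Levels are the deposited RMA values, in log2 units with 1 value per array. Dimness was judged against the background level, the 95th percentile of 23 background probe sets of the same array, which lay between 8.54 and 8.87 on day 14 and between 8.29 and 8.39 on day 21. Between 23.9% and 25.9% of clusters that have a symbol exceeded it. The level is strict, as the median of these probe sets was 2.89 to 3.07. The array medians were 4.27 to 4.45, and arrays of the same day correlated at 0.974 to 0.987 across clusters. A gene is the transcript cluster with the highest mean among those with that symbol alone, and calls needed a fold change above 2 together with an adjusted p below 0.05, from limma fitted to all arrays. Where the dimmer day lay under the background level on all 3 arrays, a fold is given as a lower bound, from the mean of the brighter day to the background level. Such folds take the deposited log2 values at face value. Genes named beside the largest changes of a list, such as known markers, were picked with their values seen. No fold is given where all 6 arrays lay under that level.

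Over the last week, 889 of 33616 genes rose and 1578 fell, which is 2.64% and 4.69% of the genes tested. Of the transcript clusters with a symbol, 962 rose (2.58%) and 1710 fell (4.59%). Among 17395 protein-coding genes, 760 rose (4.37%) and 1196 fell (6.88%). The called genes were 2467, of which 867 lay under the background level on all 6 arrays. The median change over all genes was -0.02 on the log2 scale. Changes above 3 on this scale were seen for 105 genes and changes below -3 for 98.

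**Figure D1:**
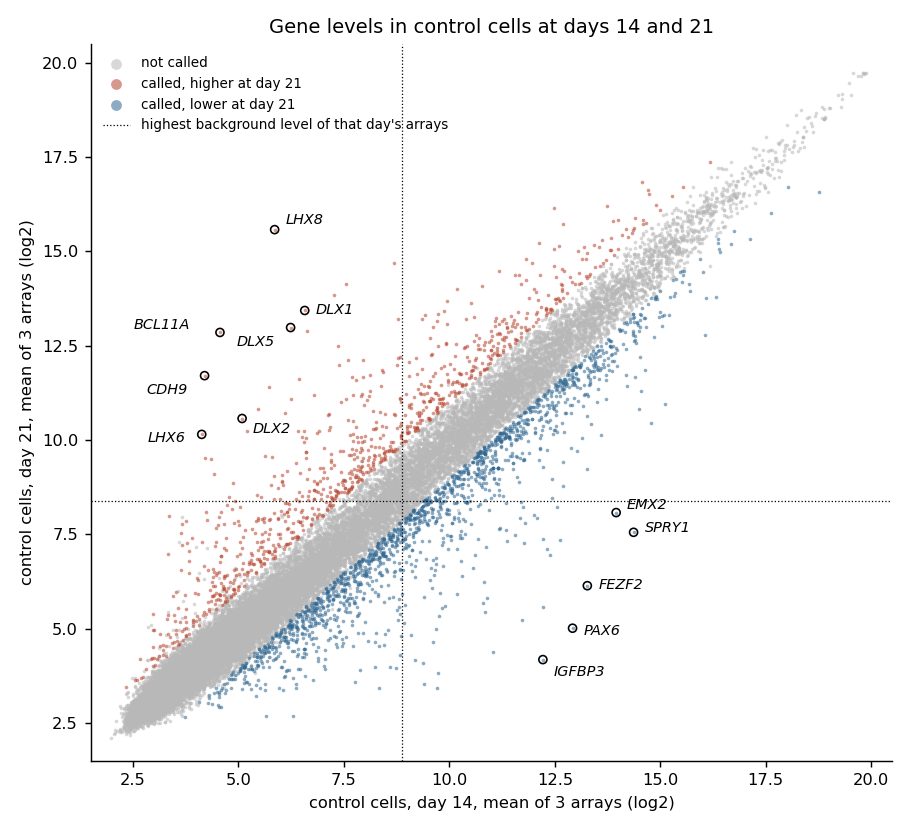
Mean level of each of 33616 genes in control cells at day 14 (x axis) and day 21 (y axis), both in log2 units over 3 arrays. Called genes are coloured, dotted lines show the highest background level of each day's arrays (8.87 and 8.39), and 12 of the 24 leading genes are circled, with *LHX8* at the far top left and *PAX6* and *IGFBP3* at the lower right.

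The 12 genes with the largest rises were led by factors of the ventral forebrain. They were *LHX8*, *BCL11A*, *CDH9*, *DLX1*, *DLX5*, *DLX6-AS1*, *SFTA3*, *GRIK3*, *LHX6*, *ADGRV1*, *NALCN* and *DLX2*. *LHX8*, a LIM homeobox gene needed for cholinergic neurons of the basal forebrain, measured 5.95, 6.28 and 5.34 on the arrays of day 14 and 15.72, 15.51 and 15.50 on those of day 21. All 3 arrays of day 14 were under the background level and all 3 of day 21 far above it, at least 119-fold (adjusted p = 3.77e-14). *BCL11A*, a zinc finger transcription factor of developing neurons, was 4.88, 4.36 and 4.45 at day 14 and 12.78, 12.89 and 12.90 at day 21, at least 18-fold higher (adjusted p = 3.18e-15). The genes beside it encode surface proteins and channels. The type II cadherin gene *CDH9* was 4.20, 4.16 and 4.24 and then 11.88, 11.75 and 11.49 (at least 8.14-fold, adjusted p = 6.46e-14). *GRIK3*, a kainate receptor subunit, was 6.44, 6.71 and 6.76 and then 12.69, 13.06 and 12.90 (at least 18.3-fold, adjusted p = 6.46e-14). *NALCN*, a sodium leak channel that sets the resting potential of neurons, was 5.75, 5.57 and 5.85 and then 11.26, 11.58 and 11.41 (at least 6.66-fold, adjusted p = 8.03e-13). The 12 rises, and the 12 falls below, were chosen among called genes whose arrays did not overlap between the days. That separation is therefore no added support for them. *ADGRV1*, an adhesion receptor, had 1 array of day 14 above the background level and moved from 8.68 ± 0.31 to 14.68 ± 0.01 (mean ± SD, n = 3), a log2 change of 6.0 ± 0.27 (SE).

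The 12 genes with the largest falls held dorsal forebrain factors, feedback inhibitors of growth factor signalling and secreted matrix proteins. They were *IGFBP3*, *PAX6*, *FEZF2*, *SPRY1*, *ADAMTS9*, *HPSE2*, *EFEMP1*, *ETV5*, *PARM1*, *EMX2*, *ANKRD1* and *ZNF217*. *IGFBP3*, which binds insulin-like growth factors outside the cell, went from 12.22 ± 0.28 at day 14 to 4.18 ± 0.43 at day 21, at least 14.8-fold lower (adjusted p = 2.14e-16). *ADAMTS9*, a secreted protease that cuts versican, was 12.10, 12.37 and 12.21 and then 5.51, 5.34 and 5.84 (at least 14.9-fold lower, adjusted p = 2.45e-13). *EFEMP1*, a fibulin of the extracellular matrix, was 11.63, 11.83 and 11.67 and then 5.43, 4.86 and 5.38 (at least 10.4-fold lower, adjusted p = 8.10e-14). Separate arrays of the 2 days were again a condition of the choice. *ZNF217*, a zinc finger transcription factor, went from 12.38 ± 0.19 to 6.96 ± 0.27 (at least 16.6-fold lower), and *ANKRD1*, a known target of YAP signalling, from 9.39 ± 0.39 to 3.54 ± 0.26 (at least 2.09-fold lower). Of the 24 leading genes, 22 had their dimmer day under the background level on all 3 arrays, and the exceptions were *ADGRV1* and *EMX2*.

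**Figure D2:**
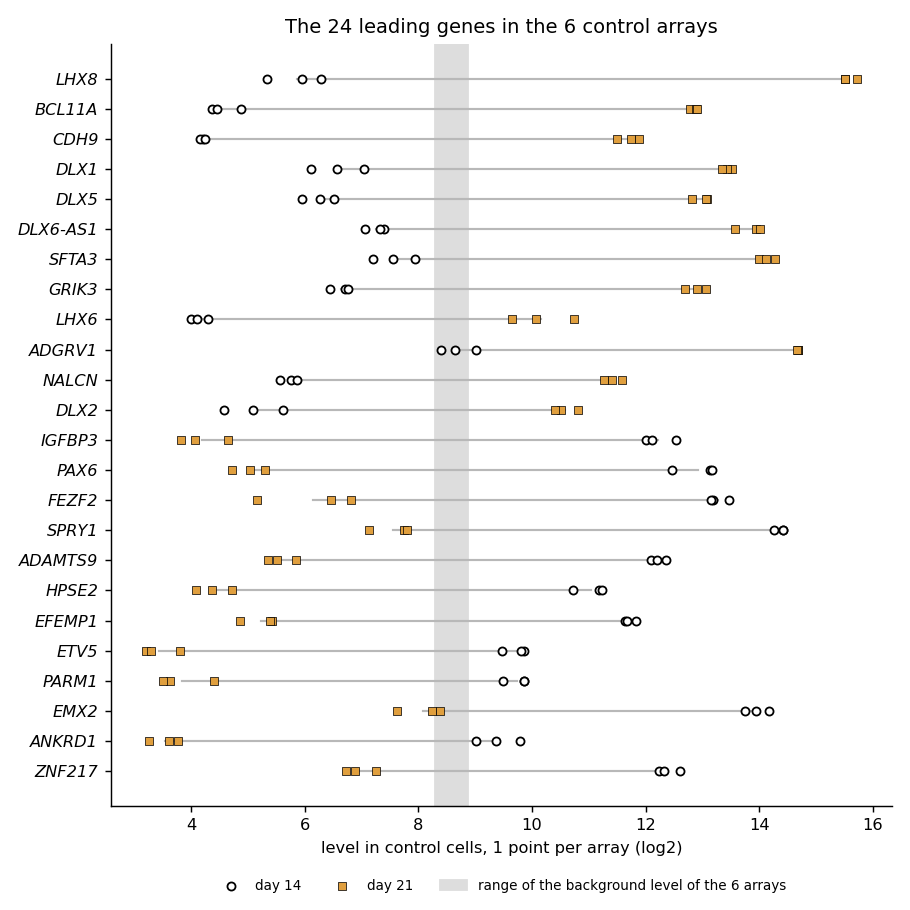
Level of the 24 leading genes on the 6 control arrays (x axis, log2), with open circles for day 14, squares for day 21 and a grey line between the means. The grey band spans the background levels of the 6 arrays (8.29 to 8.87), and for 22 genes the dimmer day lies left of its background level on all 3 arrays.

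Most measured genes of the GABAergic lineage rose, and so did *NKX2-1*, *LHX6* and *LHX8* of the medial eminence. Of 18 measured genes of the forebrain GABAergic lineage, 12 rose and 2 fell, with a median log2 change of 1.72 against -0.02 over all genes, and 4 of the 14 called members never reached the background level on any array. Of 15 measured genes of the ventral forebrain and medial ganglionic eminence, 8 rose and 2 fell (median 1.13), and 4 of these 10 were under that level throughout. The *DLX* genes sit in the genome as pairs, and both members rose of the pair *DLX1* and *DLX2* and of the pair *DLX5* and *DLX6*. *DLX1* was 6.10, 7.05 and 6.57 at day 14 and 13.53, 13.43 and 13.35 at day 21 (at least 27.0-fold), and its neighbour on chromosome 2, *DLX2*, was 4.57, 5.08 and 5.61 and then 10.81, 10.50 and 10.40 (at least 3.70-fold). *DLX5* on chromosome 7 was 6.26, 5.94 and 6.50 and then 13.08, 12.81 and 13.06 (at least 19.7-fold), and *DLX6* moved from 4.36 ± 0.06 to 9.50 ± 0.18 (at least 1.76-fold). No array of day 14 reached the background level in any of the 4. *DLX6-AS1*, a long noncoding RNA transcribed from the same locus, was 7.07, 7.39 and 7.32 and then 13.95, 14.02 and 13.58 (at least 35.9-fold). It overlaps *DLX6* on the other strand, and how far probes kept the strands apart is not given in the sources used here.

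Homeobox genes of the medial eminence rose beside them. *NKX2-1*, which specifies the medial ganglionic eminence, was already above the background level at day 14, at 9.18, 9.63 and 10.02, and measured 13.22, 12.96 and 12.82 at day 21, a log2 change of 3.39 ± 0.26 (adjusted p = 4.97e-09). *LHX6*, a target of NKX2-1 in interneuron precursors, was 4.29, 3.99 and 4.10 and then 10.07, 10.74 and 9.65 (at least 2.77-fold, adjusted p = 2.22e-12). *SFTA3*, annotated next to *NKX2-1* on chromosome 14, went from 7.56 ± 0.37 to 14.13 ± 0.14 (at least 43.7-fold), and *NKX2-1-AS1* from the same place was 4.85 ± 0.36 and then 8.16 ± 0.15, under the background level on both days. Every array of day 21 was above every array of day 14 at each of these genes, which for *LHX6* and *SFTA3* was a condition of their choice. The days did not overlap for 2460 of the 2467 called genes, so such separation adds little to a call. *GSX2*, a homeobox gene of the lateral eminence, rose from 6.55 ± 0.38 to 10.24 ± 0.13. *GAD2* and *SLC32A1*, which make GABA and load it into vesicles, were called higher (4.74 ± 0.27 to 8.29 ± 0.45 and 3.34 ± 0.35 to 6.98 ± 0.36), though 1 array of day 21 was above the background level for *GAD2* and 0 for *SLC32A1*. *GAD1*, the other GABA synthesis enzyme, went from 7.83 ± 0.46 to 9.30 ± 0.38 (adjusted p = 0.0116), but the adjusted p was 0.0851 without replicate 1 of day 14 and 0.0713 without replicate 2 of day 21. The members that fell were *ETV1* (12.70 ± 0.08 to 8.79 ± 0.32) and *SP8* (10.02 ± 0.14 to 7.47 ± 0.37) of the GABAergic list, and *SIX3* (10.78 ± 0.37 to 9.03 ± 0.57) and *VAX1* (10.04 ± 0.36 to 8.62 ± 0.15) of the ventral list. The interneuron peptides *SST* and *NPY* were at 3.94 ± 0.07 and 3.36 ± 0.17 at day 21, and *SHH* itself at 5.75 ± 0.24, all under the background level.

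The windows before the transcription start of 3 leading genes are shown because these genes lie at loci where neighbours moved together or mark the opposite side, and because each holds TAATTA, the core letters that many homeodomain proteins bind. TAATTA reads the same on both strands. It was found in 4.84% of 35116 RefSeq windows of 300 bases (250 before to 50 after a start, GRCh38.p14). Of the 24 leading genes, 19 had at least 1 such window, 37 in all since some have several starts, and 3 of these 37 windows held the letters. The 250 bases before the start are printed, with TAATTA in capitals. The window of *SFTA3* (chr14:36519557-36519806, minus strand, first T at position -103 from the start) is listed for a start of *NKX2-1* as well, that of *DLX6-AS1* is chr7:97014066-97014315 (minus strand, position -209), and that of *EMX2*, which fell, is chr10:117542496-117542745 (plus strand, position -30). A match describes letters and is not a measured binding site.
SFTA3 and NKX2-1: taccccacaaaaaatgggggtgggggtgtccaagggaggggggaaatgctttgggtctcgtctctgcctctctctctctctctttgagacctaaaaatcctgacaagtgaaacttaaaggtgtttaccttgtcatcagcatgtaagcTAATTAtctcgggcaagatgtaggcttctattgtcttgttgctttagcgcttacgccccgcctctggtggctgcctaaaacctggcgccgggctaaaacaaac
DLX6-AS1: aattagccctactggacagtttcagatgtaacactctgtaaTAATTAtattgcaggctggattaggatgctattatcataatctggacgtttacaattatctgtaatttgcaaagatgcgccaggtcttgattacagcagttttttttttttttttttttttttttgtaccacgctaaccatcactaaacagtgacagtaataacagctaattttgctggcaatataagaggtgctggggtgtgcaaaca
EMX2: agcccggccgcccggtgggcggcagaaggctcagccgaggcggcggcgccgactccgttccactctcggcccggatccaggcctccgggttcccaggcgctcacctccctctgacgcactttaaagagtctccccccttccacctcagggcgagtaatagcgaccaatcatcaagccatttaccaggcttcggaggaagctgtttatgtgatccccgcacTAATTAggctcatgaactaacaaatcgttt

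Dorsal forebrain factors fell or were not called. Of 16 measured genes of that list, 0 rose and 8 fell, beside 2.64% and 4.69% of all genes (median log2 change -0.92). The lack of rises, here and in the forebrain and eye field list below, is near the share over all genes. On all 6 arrays, 11 of the 16 were under the background level, among them 3 of the 8. *PAX6*, a paired box and homeobox gene of cortical progenitors and the eye, was 12.46, 13.14 and 13.16 at day 14 and 5.03, 5.29 and 4.72 at day 21, at least 24.1-fold lower (adjusted p = 5.29e-15). *FEZF2*, which specifies deep-layer projection neurons, was 13.18, 13.16 and 13.47 and then 6.46, 5.16 and 6.81 (at least 30.7-fold lower, adjusted p = 6.36e-11). *EMX2*, a homeobox gene that sets cortical area and whose window is printed above, was 13.76, 13.93 and 14.17 and then 8.24, 8.38 and 7.62, with 1 array of day 21 above the background level, a log2 change of -5.87 ± 0.41 (adjusted p = 1.24e-09). All 3 genes are among the largest falls, for which separate arrays of the 2 days were a condition of the choice. *GLI3* went from 13.71 ± 0.09 to 11.10 ± 0.21, and *TLE4*, a Groucho corepressor of deep-layer neurons, from 15.34 ± 0.13 to 13.91 ± 0.07. *EOMES* and *NEUROG1*, of intermediate progenitors and the excitatory neuron lineage, were called lower but stayed under the background level on both days. Of 14 measured factors of the general forebrain and eye field, 0 rose and 7 fell, among them *OTX2* (15.94 ± 0.22 to 14.80 ± 0.13) and *FEZF1* (15.00 ± 0.22 to 13.41 ± 0.10, with *FEZF1-AS1* from 13.51 ± 0.10 to 11.37 ± 0.04). *LHX2*, a LIM homeobox gene of the whole telencephalon, was 13.56 ± 0.20 and 13.46 ± 0.10 and was not called. *NR2F1*, a nuclear receptor of caudal and lateral telencephalon that is in no list, was picked after its values were seen as another locus with a neighbouring noncoding RNA: it rose from 10.19 ± 0.33 to 14.02 ± 0.24, and *NR2F1-AS1* from 9.36 ± 0.22 to 11.89 ± 0.37.

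Most genes of other regions and lineages were dim. So were most genes of the array, as 23.9% to 25.9% of clusters with a symbol exceeded the background level. Over all genes, 2.64% rose and 4.69% fell. Low counts here therefore do not show that a region or lineage was absent. Of 22 hypothalamus and diencephalon genes, 1 rose and 2 fell, and 19 never reached the background level. Of 17 midbrain and hindbrain genes, 1 rose and 1 fell, and 16 were under that level, *EN1*, *EN2* and *TH* among them. None of 16 neural crest and plate border genes was called. Of 18 genes of the dorsal midline and choroid plexus, 5 fell and 0 rose, of which *OTX2* was above the background level on all arrays. The defining markers were counted too. Of 6 neural progenitor markers, 6 exceeded the background on every array of day 14 and 5 on those of day 21, the exception being *PAX6*. Of 5 ventral forebrain markers, 1 was above it on all arrays of day 14 (*NKX2-1*) and 5 on those of day 21, and all 4 measured neuron markers were above it on both days. The markers of astrocytes (*GFAP*, *AQP4*, *S100B*), neural crest (*SOX10*, *FOXD3*, *PAX3*, *TFAP2A*), endothelium, blood, endoderm, epithelium, eye pigment cells and choroid plexus lay under it on all 6 arrays. *PMEL*, a pigment cell gene, was called lower from 8.33 ± 0.23 to 3.43 ± 0.16.

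**Figure D3:**
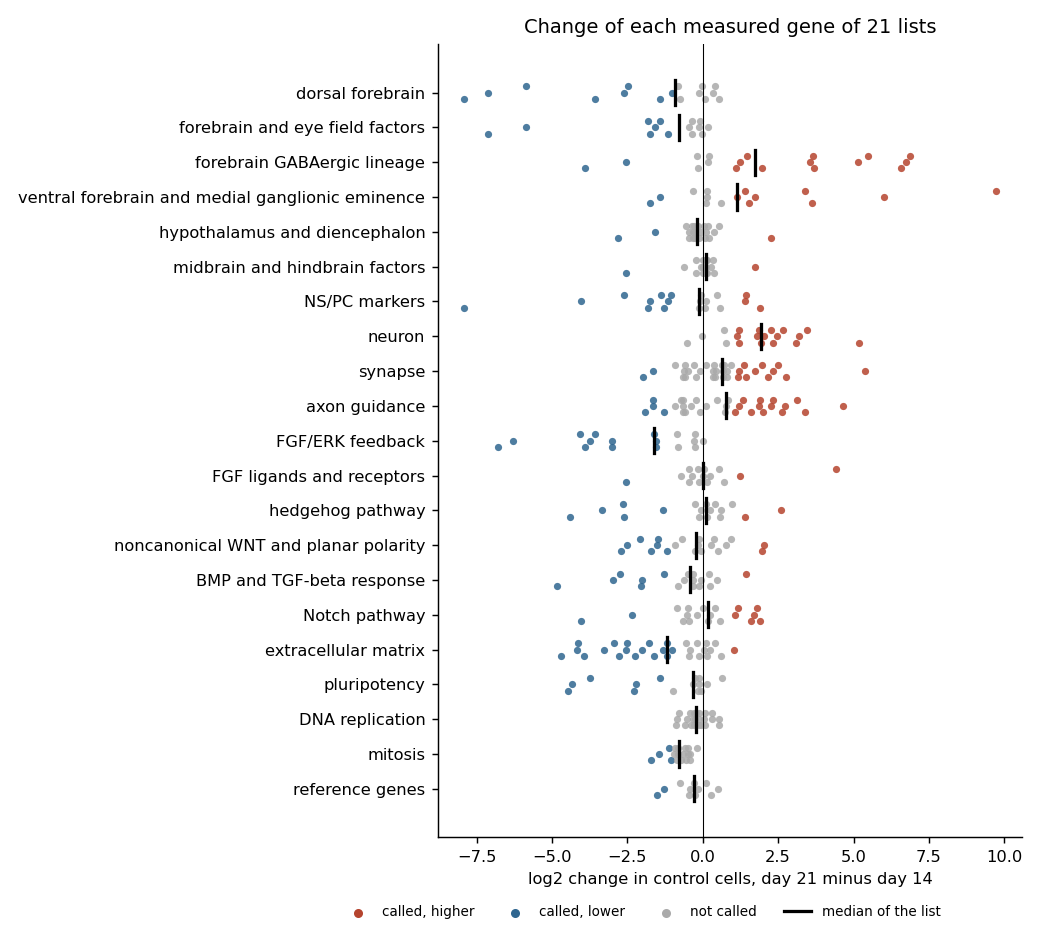
Log2 change from day 14 to day 21 in control cells (x axis) of each measured gene of 21 lists (rows), with called genes in colour and a black bar at the median of the list. The neuron list sits furthest to the right (median 1.92) and FGF/ERK feedback furthest to the left (median -1.62).

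Most measured feedback genes of FGF and ERK signalling fell. Receptor tyrosine kinases of the FGF family signal through RAS and ERK, and ERK induces its own inhibitors, the Sprouty and SPRED proteins and the phosphatase DUSP6, and acts through the ETS factors *ETV1*, *ETV4* and *ETV5*. Of 17 measured genes of this list, 0 rose and 11 fell (median -1.62), 3 of them under the background level on all 6 arrays. *SPRY1* was 14.42, 14.25 and 14.42 at day 14 and 7.75, 7.13 and 7.79 at day 21, at least 65.6-fold lower (adjusted p = 5.67e-15). *ETV5* was 9.86, 9.47 and 9.81 and then 3.21, 3.29 and 3.80 (at least 2.61-fold lower, adjusted p = 3.04e-13), and *SPRY2* and *DUSP6* went from 11.67 ± 0.12 to 7.92 ± 0.35 and from 8.86 ± 0.16 to 4.80 ± 0.58. The days did not overlap for any of them, as for 2460 of the 2467 called genes, and for *SPRY1* and *ETV5* this was a condition of their choice. *SPRED1* and *SPRED2* fell by 1.55 and 3.02 on the log2 scale. *CCND1*, a cyclin that ERK also induces, was 13.08 ± 0.24 and 12.81 ± 0.13 and was not called, nor was *ETV4*, which was under the background level throughout. Among 15 measured ligands and receptors, *FGF8* fell (8.85 ± 0.28 to 6.31 ± 0.27) and 2 receptors were called higher. *FGFR2* was 8.69, 8.85 and 8.80 and then 13.26, 13.21 and 13.14, a log2 change of 4.42 ± 0.18 (adjusted p = 1.18e-13), with 2 arrays of day 14 above the background level. *FGFR3* was under that level on both days. *FGFR1* (11.21 ± 0.24 and 10.49 ± 0.19) and *FGF2* (11.98 ± 0.03 and 11.53 ± 0.17) were not called.

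In the hedgehog pathway, *PTCH1*, both the receptor and a direct target of the signal, rose, while the coreceptor genes *BOC* and *CDON* and the factors *GLI2* and *GLI3* fell. *PTCH1* was 12.48, 12.65 and 12.28 at day 14 and 15.12, 14.99 and 15.06 at day 21, a log2 change of 2.58 ± 0.18 (adjusted p = 1.35e-09). The coreceptor genes *BOC* (12.86, 13.09 and 13.16 to 9.35, 9.85 and 9.90) and *CDON* (12.21, 11.89 and 12.28 to 9.45, 9.47 and 9.48) fell by 3.34 and 2.66 on this scale. *GLI2*, the main activator among the GLI proteins, was 9.78, 9.88 and 9.57 and then 5.24, 5.49 and 5.27 (at least 2.67-fold lower, adjusted p = 8.05e-07). Of 17 measured genes, 2 rose and 5 fell, with 2 of the 7 under the background level throughout.

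*ROR2* is the gene targeted in the other cell line and a receptor for WNT5A. In control cells it was 6.65, 6.32 and 6.68 at day 14 and 4.25, 4.64 and 4.48 at day 21 (adjusted p = 8.29e-06). Every array was under the background level, and the days did not overlap, as for 2460 of the 2467 called genes. At day 7 *ROR2* had been 9.29 ± 0.11. In *ROR2* KD cells it was 3.98 ± 0.15 at day 14 and 3.57 ± 0.17 at day 21. Of 20 measured genes of noncanonical WNT signalling and planar polarity, 2 rose and 7 fell. The ligand *WNT5A* went from 6.93 ± 0.23 to 8.90 ± 0.14 (at least 1.16-fold, adjusted p = 1.23e-06) and the receptor *FZD1* from 10.59 ± 0.28 to 12.62 ± 0.44. *ROR1*, the paralogue of *ROR2*, fell from 10.63 ± 0.23 to 9.10 ± 0.21, *FZD7* from 10.50 ± 0.11 to 7.79 ± 0.42 and *FZD6* from 11.19 ± 0.08 to 8.67 ± 0.34. Canonical WNT targets and antagonists were split, with 2 higher and 4 lower of 19. *SFRP1*, a secreted WNT antagonist, fell from 13.53 ± 0.03 to 11.95 ± 0.20.

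Other signalling lists were mixed. Of 18 BMP and TGF-beta genes, 1 rose and 6 fell, but 16 never reached the background level. *ID2*, a BMP target that blocks bHLH factors, was 12.19, 12.02 and 12.41 and then 7.37, 7.81 and 6.96 (at least 14.7-fold lower, adjusted p = 8.99e-12), whereas *ID4* rose from 9.45 ± 0.43 to 10.88 ± 0.20. Of 19 Notch genes, 6 rose and 2 fell. The ligand *DLL1* rose from 12.10 ± 0.13 to 13.71 ± 0.25 and the ligand *JAG1* fell from 12.15 ± 0.16 to 9.79 ± 0.27. The effectors parted too, as *HES1* went from 11.55 ± 0.14 to 7.49 ± 0.29 (at least 9.33-fold lower, adjusted p = 2.01e-12) and *HES5* from 11.19 ± 0.26 to 13.09 ± 0.07 (log2 change 1.90 ± 0.35, adjusted p = 0.00102). *RDH10*, which makes retinal for retinoic acid synthesis, was 6.97, 7.31 and 7.18 and then 10.80, 10.65 and 10.60 (at least 3.99-fold higher). It was the only riser of 13 retinoic acid genes, of which 1 fell, beside 2.64% and 4.69% of all genes.

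Most measured neuronal genes rose. Of 19 measured neuron genes, 15 rose and 0 fell (median 1.92), and none of the called members was under the background level throughout. *DCX*, a microtubule protein of migrating neurons, went from 14.70 ± 0.10 to 16.62 ± 0.09, *STMN2*, a growth cone protein, from 14.56 ± 0.18 to 16.84 ± 0.20, and *INA*, an intermediate filament of young neurons, from 13.73 ± 0.18 to 16.21 ± 0.12. The adhesion molecule gene *L1CAM* was 6.53, 6.49 and 6.30 and then 11.62, 11.48 and 11.74 (at least 7.62-fold, adjusted p = 1.91e-12). *ELAVL3*, an RNA-binding protein of neurons, was 9.74, 9.56 and 9.84 and then 13.18, 13.16 and 13.16, a log2 change of 3.46 ± 0.25 (adjusted p = 2.19e-09). *RBFOX3*, which marks mature neurons, never reached the background level. Of 35 measured synaptic genes, 11 rose and 2 fell (median 0.64). *LRRTM2*, a postsynaptic adhesion protein, was 4.90, 5.66 and 5.83 and then 11.04, 10.60 and 10.84 (at least 4.43-fold, adjusted p = 1.25e-10), and *HOMER1*, a postsynaptic scaffold, fell from 10.36 ± 0.24 to 8.36 ± 0.19.

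Among 32 axon guidance genes, 14 rose and 4 fell (median 0.76). The receptor *NRP1* was 8.68, 8.74 and 8.93 and then 11.95, 12.43 and 12.12, a log2 change of 3.38 ± 0.26 (adjusted p = 3.73e-09), and the ligand *EFNB2* rose from 10.50 ± 0.17 to 13.63 ± 0.25. Receptors for the same ligands, the SLITs, moved apart, as *ROBO2* rose from 8.83 ± 0.15 to 11.10 ± 0.02 and *ROBO1* fell from 13.77 ± 0.07 to 11.86 ± 0.02. The chemokine receptors of interneuron migration did so too, since *ACKR3* rose from 11.30 ± 0.34 to 12.64 ± 0.12 (adjusted p = 0.0732 without replicate 2 of day 14) and *CXCR4* fell from 12.49 ± 0.29 to 10.83 ± 0.14. Of 19 cadherins and protocadherins, 6 rose and 3 fell. *CDH6*, a type II cadherin, was 9.17, 9.15 and 9.75 and then 13.32, 13.12 and 13.18 (log2 change 3.85 ± 0.20, adjusted p = 8.62e-12), and *PCDH19* fell from 13.55 ± 0.07 to 11.62 ± 0.18. *CDH2*, the N-cadherin of the neuroepithelium, was 16.09 ± 0.07 and 16.02 ± 0.08 and was not called.

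NS/PC markers divided. *SOX2* (16.15 ± 0.04 and 16.21 ± 0.06), *MSI1* (16.12 ± 0.12 and 16.24 ± 0.14) and *VIM* (15.77 ± 0.09 and 16.24 ± 0.05) were high on both days and not called. Of 19 measured markers, 3 rose and 9 fell. *NES*, an intermediate filament of progenitors, was 13.91, 14.32 and 14.31 and then 15.71, 15.51 and 15.59 (log2 change 1.42 ± 0.18, adjusted p = 1.41e-05), and *SOX9*, a glial and progenitor factor, rose from 11.34 ± 0.36 to 12.73 ± 0.17. *SOX1*, an early neural factor, fell from 11.97 ± 0.12 to 10.57 ± 0.30 and the lipid carrier *FABP7* from 17.13 ± 0.31 to 15.33 ± 0.19. Of 21 genes of radial glia and astrocytes, 4 rose and 4 fell. *NFIB*, a factor of late progenitors, went from 6.16 ± 0.12 to 9.19 ± 0.13 (at least 1.42-fold, adjusted p = 4.71e-09) and *GJA1*, a gap junction protein, from 13.36 ± 0.11 to 10.43 ± 0.05. *OLIG2*, of ventral progenitors and the oligodendrocyte lineage, was 4.20, 4.41 and 4.16 and then 7.99, 8.53 and 7.14 (adjusted p = 1.02e-08), with 1 array of day 21 above the background level.

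Proneural factors were split as well, with 7 higher and 8 lower of 20, and 7 of these 15 under the background level throughout. *NHLH1*, a bHLH factor of newly born neurons, fell from 9.83 ± 0.35 to 5.56 ± 0.21 (at least 2.82-fold lower), whereas *MYT1*, a zinc finger factor of neuronal differentiation, went from 7.02 ± 0.19 to 9.79 ± 0.42 (adjusted p = 3.47e-07). The 3 early B-cell factors *EBF1*, *EBF2* and *EBF3* were called lower, and no array of day 21 was above the background level for any of them.

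The loci of the microRNA miR-9, which is abundant in the developing brain and limits progenitor growth, were called higher, though *MIR9-1* not in every setting. They were picked after their values were seen. The mature strands are shown because 3 loci on different chromosomes encode the same miR-9-5p, so that changes of the host loci bear on a single mature RNA, which the arrays did not measure apart from its precursors. Capitals mark the seed, bases 2 to 8, and sequences are from RefSeq (GRCh38.p14), where the 5p strands lie at chr1:156420392-156420414 (*MIR9-1*), chr5:88666902-88666924 (*MIR9-2*) and chr15:89368032-89368054 (*MIR9-3*).
hsa-miR-9-5p: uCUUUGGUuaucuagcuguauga
hsa-miR-9-3p: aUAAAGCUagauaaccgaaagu

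The cluster that carries both *MIR9-2HG* and *MIR9-2* measured 7.99, 8.36 and 8.48 at day 14 and 15.13, 14.26 and 14.74 at day 21, at least 65.3-fold higher (adjusted p = 8.86e-13). The cluster with *MIR9-3HG* and *MIR9-3* measured 4.49, 4.60 and 4.09 and then 10.57, 10.45 and 10.02 (at least 3.17-fold, adjusted p = 2.09e-11). Host transcript and precursor share these clusters and their signals cannot be split. *MIR9-1* was 5.98, 5.62 and 5.19 and then 8.92, 5.58 and 8.98 (adjusted p = 0.0200). Its days overlapped, as 1 array of day 21 stayed at the level of day 14, and it lost its call without replicate 1 or 3 of day 21 (adjusted p = 0.137 and 0.154), without replicate 2 or 3 of day 14 (0.0620 and 0.0969), and with the 6 control arrays alone, without (0.126) or with a replicate block (0.0758). *MIR217HG*, a host transcript on chromosome 2, fell from 9.86 ± 0.14 to 6.66 ± 0.32 (at least 2.89-fold lower).

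Most measured extracellular matrix genes fell. Of 29 measured, 1 rose and 17 fell (median -1.18), 5 of the 18 under the background level on all 6 arrays. The basement membrane linker *NID1* was 11.95, 12.05 and 12.21 and then 8.28, 7.59 and 7.96 (at least 13.4-fold lower, adjusted p = 5.56e-10), and the laminin chains *LAMC1*, *LAMA1* and *LAMB1* went from 14.21 ± 0.09 to 11.42 ± 0.14, from 13.86 ± 0.17 to 11.84 ± 0.12 and from 9.69 ± 0.10 to 4.98 ± 0.93. *FBN2*, a fibrillin, fell from 10.56 ± 0.36 to 6.62 ± 0.41, the collagen *COL11A1* from 12.68 ± 0.08 to 9.42 ± 0.21, the fibronectin gene *FN1* from 12.46 ± 0.27 to 10.84 ± 0.14 and the protease *MMP2* from 11.90 ± 0.17 to 9.65 ± 0.08. *VCAN* (15.40 ± 0.05 and 14.96 ± 0.14) and *SPARC* (14.72 ± 0.14 and 15.34 ± 0.02) were not called. *COL1A1* was at 8.56 ± 0.46 and 8.69 ± 0.33, and of the other measured mesenchyme markers *LUM* was called lower and *DCN* was not, both under the background level. *KRT8*, a keratin of simple epithelia that is also found in early progenitors, fell from 12.42 ± 0.16 to 8.47 ± 0.08.

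Some genes of the pluripotent state were still well above background at day 14 and fell in the last week. *LIN28A*, which blocks the maturation of let-7 microRNAs, was 14.82, 14.63 and 14.89 at day 14 and 10.20, 10.50 and 10.62 at day 21, a log2 change of -4.34 ± 0.21 (adjusted p = 1.52e-12). *USP44* (11.76 ± 0.37 to 7.28 ± 0.36, at least 10.8-fold lower), *DPPA4* (11.35 ± 0.11 to 7.61 ± 0.06, at least 8.11-fold lower) and *SALL4* (12.48 ± 0.13 to 10.27 ± 0.22) fell with it. These were among 6 of 15 measured that fell, with 0 that rose. The core factors *POU5F1* (5.51 and 5.24) and *NANOG* (6.02 and 5.96) were under the background level on every array of both days and were not called.

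Of 23 DNA replication genes, 0 were called in either direction, and their log2 changes ran from -0.90 to 0.54. Over all genes, 2.64% rose and 4.69% fell, so 0 calls in a list of this length are near these shares. Of 18 mitosis genes, 4 fell and 0 rose, and the changes of all 18 ran from -1.71 to -0.20 with a median of -0.78. *CENPE*, a kinetochore motor, fell from 13.58 ± 0.13 to 11.86 ± 0.13 and the checkpoint kinase *BUB1* from 12.94 ± 0.12 to 11.48 ± 0.21. *MKI67* (15.01 ± 0.08 and 14.59 ± 0.09) and *TOP2A* (16.03 ± 0.03 and 15.54 ± 0.08) were not called. *CCNE2*, a cyclin of the entry into S phase, rose from 8.85 ± 0.11 to 10.14 ± 0.09. Of 20 genes of glycolysis and hypoxia, 4 fell and 0 rose. *SLC2A1*, the main glucose transporter, was 14.61, 14.47 and 14.82 and then 11.72, 11.91 and 11.95 (log2 change -2.78 ± 0.21, adjusted p = 4.66e-09). Among imprinted genes, *PEG10* rose from 10.39 ± 0.28 to 13.22 ± 0.27 and *DLK1* fell from 18.76 ± 0.09 to 16.59 ± 0.11. Of 11 reference genes, 2 fell (*B2M* by 1.28 and *HPRT1*, at least 2.39-fold lower), beside 4.69% of all genes, and the median of the list was -0.31.

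**Figure D4:**
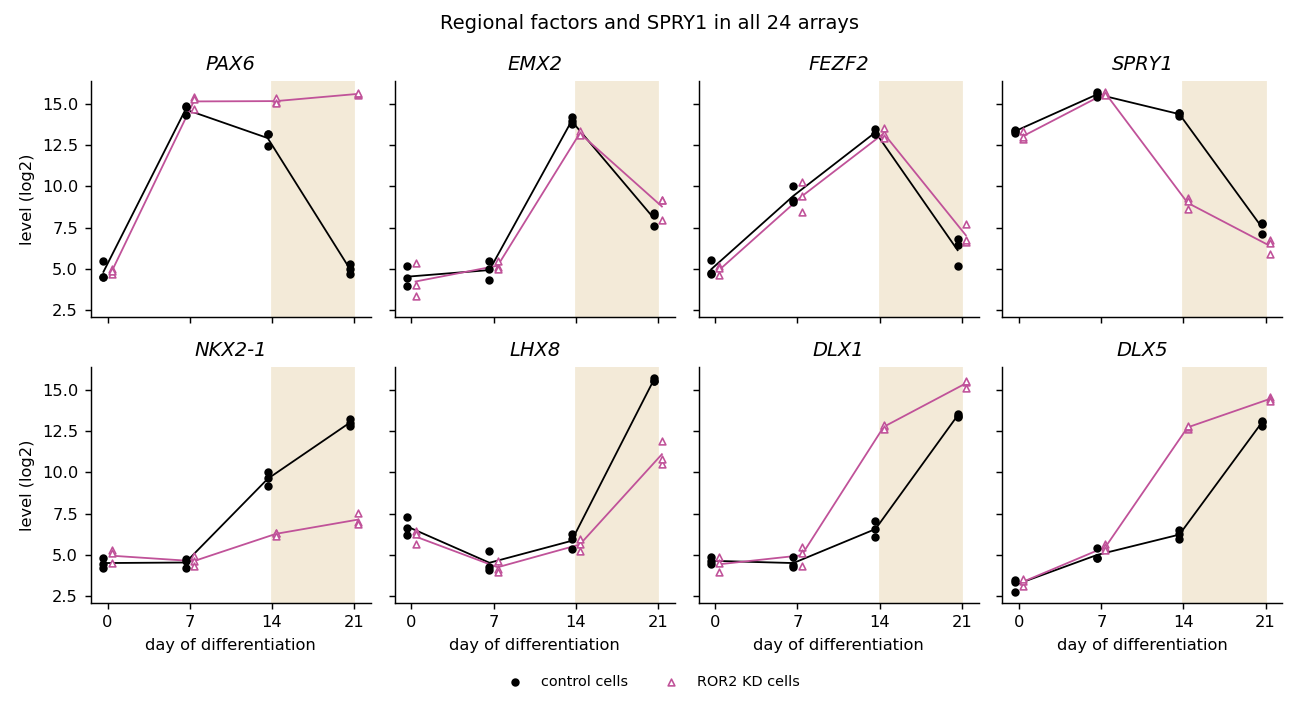
Levels (y axis, log2) of 8 genes on all 24 arrays against the day of differentiation, with filled circles for control cells, open triangles for *ROR2* KD cells and lines through the means of 3 arrays; points of the lines are set slightly apart and days 14 to 21 are shaded. *PAX6* fell in control cells and was above 15 in *ROR2* KD cells on both days, whose *DLX1* and *DLX5* were already above 12 at day 14.

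The same week was compared between cell lines by the difference of the changes, *ROR2* KD minus control. Of 33616 genes, 279 had a higher change in *ROR2* KD cells (0.83%) and 185 a lower one (0.55%). The leading genes were chosen for the size of their change in control cells, which is part of this difference, so the direction of the difference is not independent of the choice. Of the 24, 17 differed at an adjusted p under 0.05. Since 22 of the 24 had their dimmer control day under the background level on all 3 arrays, the sizes of these differences are uncertain. *PAX6* was 15.15 ± 0.19 at day 14 and 15.59 ± 0.07 at day 21 in *ROR2* KD cells, and the changes differed by 8.34 ± 0.38 (SE, adjusted p = 5.84e-12). *ETV5* was 6.25 ± 0.33 and 6.43 ± 0.44 there, beside the fall in control cells (difference 6.46, adjusted p = 6.96e-10). Both of these means and that of control cells at day 21 lay below 8.29, the lowest background level of the 6 control arrays. For *DLX5* (12.72 ± 0.11 and 14.44 ± 0.12) and *DLX1* (12.75 ± 0.12 and 15.38 ± 0.22), *ROR2* KD cells were at day 14 near the level that control cells had at day 21, and their later changes were smaller by 5.03 and 4.24 on the log2 scale. *LHX6* (3.67 ± 0.29 and 5.33 ± 0.59), *NKX2-1* (6.28 ± 0.10 and 7.14 ± 0.37) and *SFTA3* (5.44 ± 0.48 and 7.16 ± 0.24) were low on both days in *ROR2* KD cells, whereas *LHX8* went from 5.63 ± 0.39 to 11.10 ± 0.73 there. *EMX2* and *FEZF2* fell in both cell lines, from 13.21 ± 0.12 to 8.78 ± 0.71 and from 13.20 ± 0.31 to 7.04 ± 0.61 in *ROR2* KD cells. Their differences were 1.45 (adjusted p = 0.659) and 0.97 (adjusted p = 0.939), which does not show that they fell alike. The cell lines were transduced apart, so other differences between them cannot be told apart from the knockdown.

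**Figure D5:**
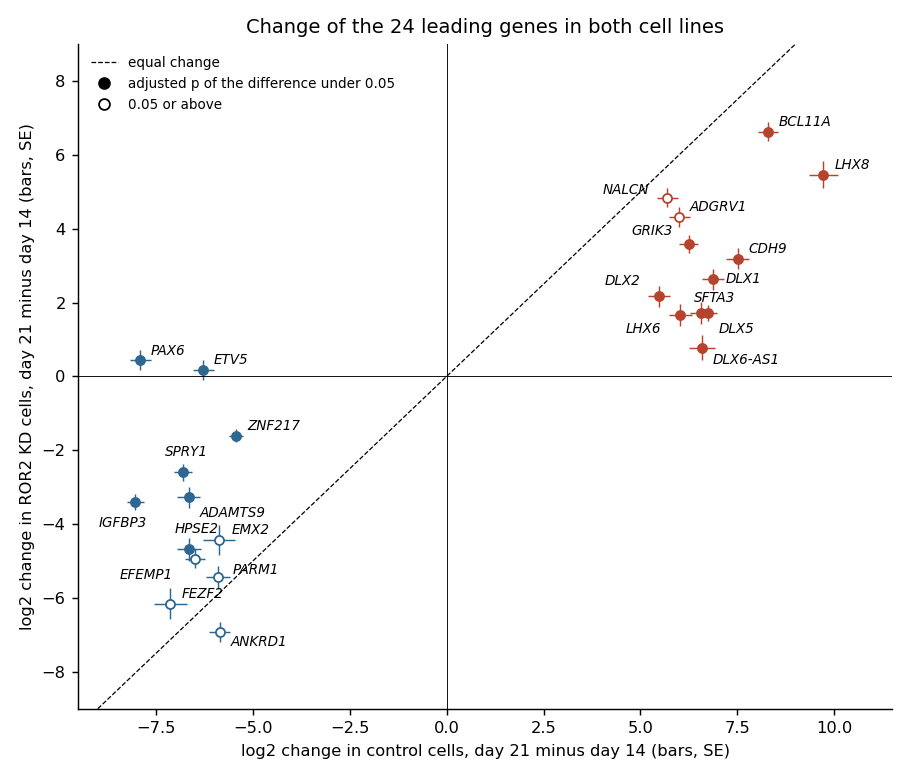
Log2 change from day 14 to day 21 of the 24 leading genes in control cells (x axis) and *ROR2* KD cells (y axis), with bars for the SE from limma, filled points where the adjusted p of the difference was under 0.05 (17 genes) and a dashed line of equal change. *PAX6* and *ETV5* lie near 0 on the y axis (0.44 and 0.18).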

How the data were processed

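Total RNA of 24 samples, 3 biological replicates of control and *ROR2* KD cells at each of 4 days, was hybridised to Clariom D arrays. The deposited values are log2 signals that the authors obtained by RMA in the Transcriptome Analysis Console. They reach 19.9, above a 16-bit scanner range, for which the sources used here give no cause. No further normalisation was applied. After leaving out 2995 array controls, limma 3.58.1 in R 4.3.3 was fitted to the 8 groups over all 24 arrays, and p-values were adjusted by Benjamini-Hochberg over 135750 clusters. Clusters with several symbols (1119 of 37295) name no gene unless both symbols are given.

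Named genes were the 12 largest rises and falls with arrays that do not overlap, *ROR2*, and up to 4 called members per direction of 37 lists. Some lists share members, such as *PAX6*, *OTX2* and *FGF8*, so their counts are not separate results. The comparison, members and lists were chosen with earlier results of these data known. On simulated data, 37 of 50 clusters changed by 1.5 log2 units and 50 of 50 changed by 3 were called, with 10 of 135550 unchanged ones. No 2 arrays were identical. The number of arrays limits the precision. Alternatives were another normalisation, fit, threshold or filter, a replicate block and each array left out.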

Additional observations from a re-analysis of the deposited data

Results flagged for a closer look

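The change from day 14 to day 21 differed between *ROR2* KD and control cells for 17 of the 24 leading genes, by the test of the difference itself in limma (adjusted p under 0.05 over all clusters). These genes were chosen for a large change in control cells, which enters the difference. For 22 of the 24 the dimmer control day lay under the background level on all 3 arrays, so the sizes below are uncertain. The change in *ROR2* KD cells minus that in control cells, in log2 units, was -5.81 for *DLX6-AS1*, -5.03 for *DLX5*, -4.86 for *SFTA3*, -4.37 for *LHX6*, -4.32 for *CDH9* and -4.26 for *LHX8*. It was -4.24 for *DLX1*, -3.31 for *DLX2*, -2.67 for *GRIK3* and -1.67 for *BCL11A*. Among genes that fell in control cells it was 8.34 for *PAX6*, 6.46 for *ETV5*, 4.64 for *IGFBP3*, 4.21 for *SPRY1*, 3.82 for *ZNF217*, 3.38 for *ADAMTS9* and 1.97 for *HPSE2*. The adjusted p-values ran from 5.84e-12 (*PAX6*) to 0.0400 (*BCL11A*). No group had enough arrays for a search for single outlying samples.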

How the results depend on the processing

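The 24 leading genes kept their call and direction in the 10 other fits run for single genes and with each array left out, with changes of 5.23 to 9.93 log2 units in size. The counts of clusters with a symbol that rose and fell (962 and 1710) moved by more than 1.5 times with the methods' t-test on the 6 arrays after Benjamini-Hochberg (468 and 613), with clusters without a symbol counted (2341 and 3020) and with a fold above 4 (263 and 330). Leaving out each array gave 807 to 954 such clusters that rose and 1475 to 1668 that fell. Median centring moved the changes by a median of -0.108 log2 units and the share of calls that were higher from 36% to 26.7%, and quantile normalisation moved it to 40.8%. The difference between cell lines (279 higher and 185 lower) gave 326 and 318 among clusters above background, and 226 to 275 and 125 to 185 with each array left out. The difference of *BCL11A* lost its call with quantile normalisation (adjusted p = 0.0602), with the 12 arrays of both days (0.0698) and without 9 single arrays (0.0697 to 0.157), and that of *HPSE2* with the replicate block (0.0615) and without 7 single arrays (0.0813 to 0.130). Of 148 named genes, 48 lost their call in at least 1 setting, 44 of them with the t-test. Same-numbered arrays of the 2 days had weak residual correlations (0.0568, 0.0338 and 0.000119), and those of differently numbered arrays ran from -0.0572 to 0.0248. Residuals were taken within small groups, so these values cannot decide whether numbers pair samples. The labels do not state it either. With a replicate block 954 clusters with a symbol rose and 1684 fell, and the difference was called for 253 and 173. Settings for further members were run with the data seen. Dim genes limit the folds, since 867 of 2467 called genes lay under the background level throughout.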
